A study of Homo sapiens with 54 samples.

Results

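The keratin and TP63 genes described here are KRT7, KRT8, KRT18 and KRT19, which are keratins of simple, single-layered epithelia, KRT5, KRT14, KRT15 and KRT17, which are keratins of basal cells and stratified epithelia, KRT23, and TP63, the gene of the transcription factor p63. They were chosen by name, and the probes were found through the RefSeq accession that the array files give for each probe. The 10 genes have 13 of the 42405 probes, and 19720 genes in all have a probe named in this way. KRT8, KRT18 and KRT23 have 2 probes each, and each gene is described by its probe with the highest mean signal.

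Keratins form the intermediate filaments of epithelial cells, and each filament is built from pairs of an acidic type I and a basic type II keratin. KRT8 (type II) and KRT18 (type I) are the usual pair of simple epithelia and of the early embryo, where they are joined by KRT7 (type II) and KRT19 (type I). KRT5 (type II) and KRT14 (type I) pair in the basal layer of the epidermis, where p63 is needed for the stratified programme and acts on the KRT5 and KRT14 genes. KRT15 also marks basal cells, KRT17 is found in skin appendages and in injured epidermis, and KRT23 is a less studied type I keratin. In the RefSeq gene table (GRCh38.p14) KRT5, KRT7, KRT8 and KRT18 lie on chromosome 12, KRT14, KRT15, KRT17, KRT19 and KRT23 on chromosome 17, and TP63 on chromosome 3. KRT8 and KRT18 are next to each other, as are KRT15 and KRT19.

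The study asked whether FGFC, a chimera of FGF1 and FGF2, can take the place of basic FGF (bFGF, FGF2) in cultures of human embryonic stem cells (ESCs) and induced pluripotent stem cells (iPSCs). RNA was measured on 54 one-colour arrays, which hold 27 cultures on 2 arrays each. H1 ESCs in E8 Medium, a defined medium without feeder cells, were measured as pre-cultures with 100 ng/mL of bFGF and after 4 days with 100 ng/mL of bFGF, 100 ng/mL of FGFC or no FGF, in 3 numbered experiments. Long-term cultures with bFGF or FGFC at the same dose, each with its pre-culture in bFGF, came from 5 systems. These were H1 ESCs in E8 Medium (30 days, 100 ng/mL), H1 ESCs in medium conditioned by mitomycin C-treated mouse embryonic fibroblasts (MEF-CM; 41 days, 5 ng/mL), KhES-1 ESCs on such fibroblasts as feeder cells (30 days, 5 ng/mL), 201B7 iPSCs on feeder cells (50 days, 10 ng/mL) and 253G1 iPSCs in E8 Medium (36 days, 100 ng/mL). The last culture was H1 that had differentiated in vitro through embryoid bodies without FGF. Each system is 1 line kept in 1 kind of culture, so that line, medium, FGF dose and feeder cells cannot be told apart between most of them. The systems also shared no scan day, so that scan day cannot be told apart from system. The p-values measure only the spread between these cultures. The same bFGF cultures enter more than 1 of the comparisons below.

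Values are log2 normalized signals. The signal of a probe was transformed to log2, the 75th percentile over the probes of the array was subtracted, and the 2 arrays of a culture were averaged. A value of 0 is thus the 75th percentile of the array, and 1 unit is a 2-fold difference. Values of different probes are not comparable as levels. The scanner software marks spots that are well above background, and between 56.2% and 79.2% of probes had this mark per array. The MEF-CM arrays lay at the upper end (75.2% to 79.2%), those of H1 in E8 Medium with FGF spread from 57.1% to 77.1%, and those of 253G1 lay between 56.2% and 61.7%. The 75th percentile of the signal itself ranged from 182 to 914 between arrays, and 0 spots were saturated.

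KRT7, KRT8, KRT15, KRT18 and KRT19 were well above background on all 54 arrays. KRT17 was so on 20 arrays, KRT14 and TP63 on 10 each, and KRT5 and KRT23 on 2 each, both of the differentiated culture. Before differentiation, then, the simple keratins and KRT15 could be followed in every culture, while the other basal keratins and TP63 were at or near background. Of KRT5 and KRT23 the undifferentiated cultures gave no level, only a bound. The median difference between the 2 arrays of a culture was 0.05 for KRT7 and KRT19, 0.07 for KRT8 and KRT18 and 0.14 for KRT15, and it was 0.52 for KRT23, which was mostly at background.

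**Figure D1:**
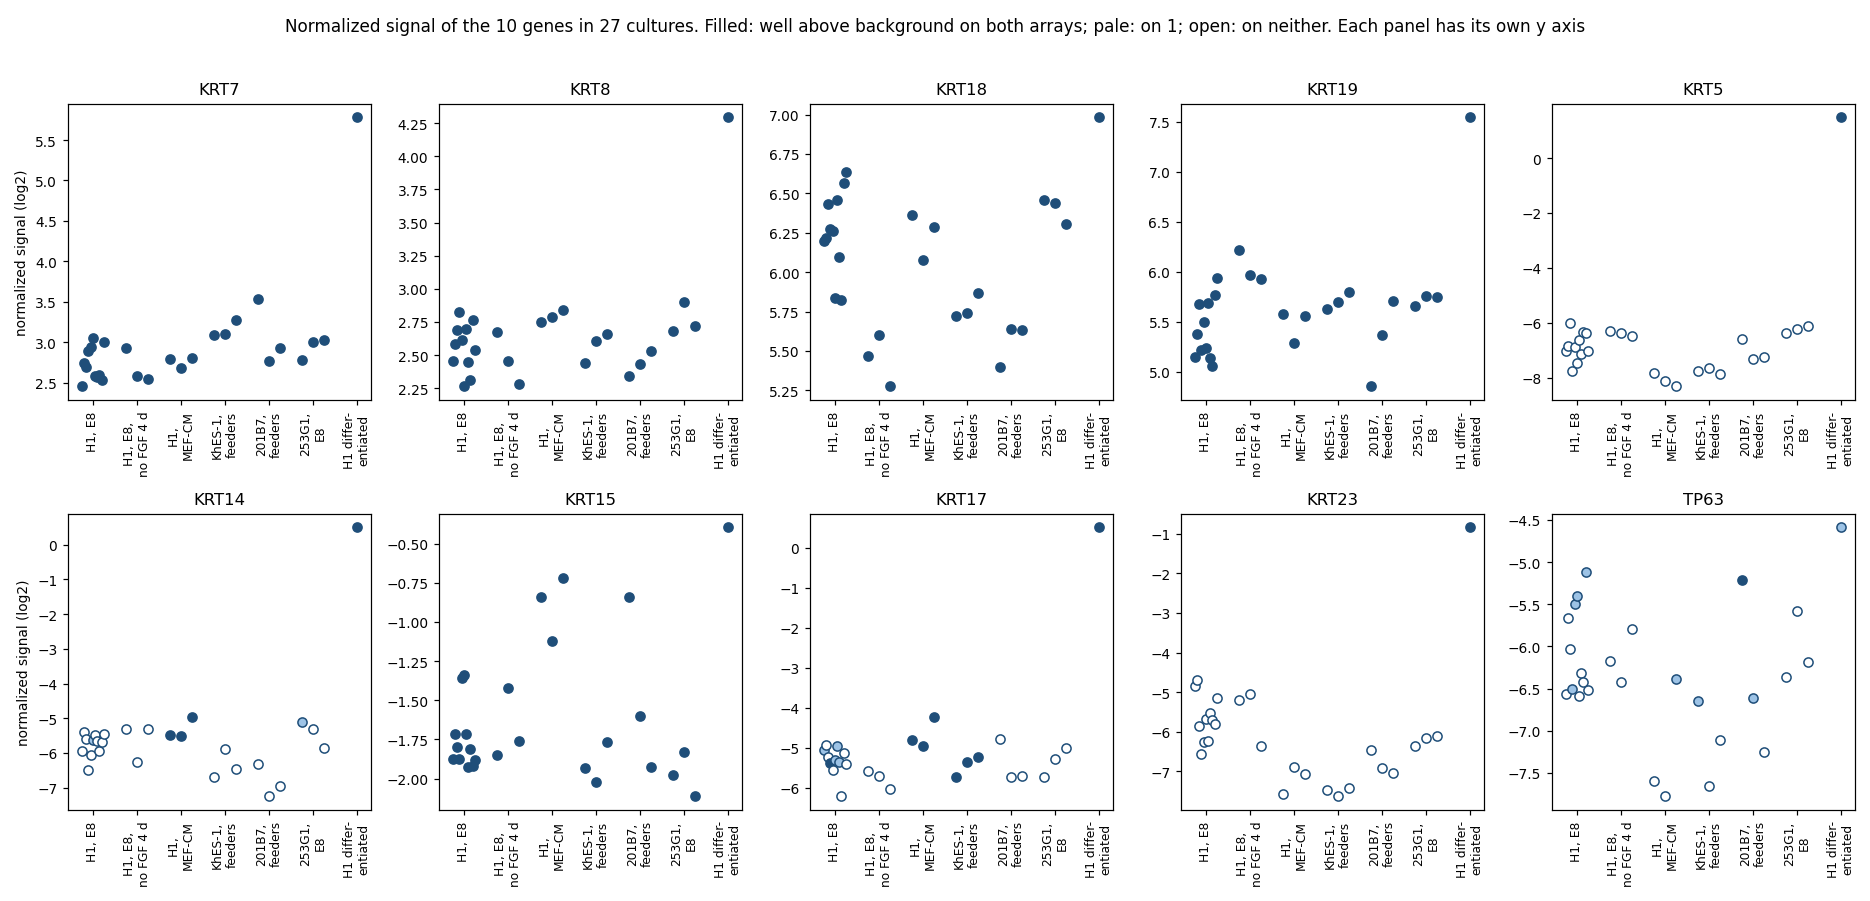
Log2 normalized signal (y axis, different in each panel) of the 10 genes in 27 cultures, grouped along the x axis by system, each point being 1 culture. Filled points were well above background on both arrays, pale points on 1 and open points on neither; KRT5 and KRT23 have filled points only for the differentiated culture, and KRT18 is lowest without FGF and in the lines on feeder cells.

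Among the promoter sequences at hand, those of KRT5, KRT8 and TP63 could be matched. The windows reach from 250 bases before to 50 bases after a RefSeq start of the gene. This start was not matched to the transcript that the probes are named for, so that it may be another start of the gene. The KRT5 and KRT8 windows are shown as those of a basal and a simple type II keratin that lie on the same chromosome (GRCh38.p14, minus strand, KRT5 chr12:52520345-52520644 and KRT8 chr12:52926420-52926719). Capitals mark the letters CATG, the usual centre of the sites bound by proteins of the p53 family, to which p63 belongs. CATG reads the same on both strands.
KRT5: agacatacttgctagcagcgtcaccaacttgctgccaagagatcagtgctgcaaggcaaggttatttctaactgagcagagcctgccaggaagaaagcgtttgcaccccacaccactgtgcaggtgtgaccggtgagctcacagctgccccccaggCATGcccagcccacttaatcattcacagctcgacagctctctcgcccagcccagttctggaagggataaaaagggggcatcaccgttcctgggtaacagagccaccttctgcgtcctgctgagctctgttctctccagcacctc
KRT8: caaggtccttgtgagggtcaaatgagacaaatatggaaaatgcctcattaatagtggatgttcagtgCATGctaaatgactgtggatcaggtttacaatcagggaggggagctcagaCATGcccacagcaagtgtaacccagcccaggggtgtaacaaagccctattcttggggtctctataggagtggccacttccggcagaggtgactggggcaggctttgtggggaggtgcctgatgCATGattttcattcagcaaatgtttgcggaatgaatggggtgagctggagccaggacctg
The KRT5 window holds CATG 1 time and the KRT8 window 3 times, and of 35116 windows of the same length 54.9% hold it at least once. The letters TATAAA, which 11.5% of windows hold, are in neither of these. A match is a run of letters and not a site.

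Of the simple keratins, KRT18 was the one called after withdrawal of FGF from H1 for 4 days. It was lower without FGF than with bFGF, KRT19 differed by a similar amount in the other direction but did not pass the test, and KRT7, KRT8 and KRT15 stayed close to their levels with bFGF. KRT18 was the 1 gene of the 10 with a limma adjusted p under 0.05, beside 12.7% of all probes (5.54% higher and 7.19% lower). The basal keratins KRT5, KRT14 and KRT17 and TP63 were not well above background on any array of the 3 cultures without FGF.

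KRT18, the type I partner of KRT8, had signals of 6.22, 6.26 and 6.10 in the bFGF arm of experiments 1, 2 and 3. The FGFC arm gave 6.43, 5.83 and 5.82, and the arm without FGF gave 5.46, 5.60 and 5.28. All 3 cultures without FGF lay below all 6 cultures with bFGF or FGFC and below the 3 pre-cultures, which were at 6.20, 6.28 and 6.46. The share of all probes that separate in this way was not counted. Against bFGF, 10700 of 42405 probes had an unadjusted limma p under 0.05. The difference from bFGF was -0.74 (SE 0.19, 95% interval -1.17 to -0.32), a signal 1.67-fold lower, with an adjusted p of 0.0269 in limma. The other KRT18 probe differed by -0.78, at an adjusted p of 0.05 after rounding. The call for KRT18 rested on all 3 experiments, since without experiment 1, 2 or 3 the adjusted p was 0.0754, 0.166 and 0.289, at differences of -0.74, -0.79 and -0.71. It also missed the threshold with only the second array of each culture (-0.66, adjusted p = 0.0757). The arms of an experiment were scanned on 1 day, and within the 3 days the difference was -0.75, -0.66 and -0.82.

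KRT19, a type I keratin of simple epithelia, had a difference of the opposite sign that missed the threshold. In the bFGF arm its signals were 5.38, 5.50 and 5.14. The FGFC arm gave 5.68, 5.23 and 5.05, and the arm without FGF gave 6.22, 5.96 and 5.92. The cultures without FGF lay above those with bFGF or FGFC and above the pre-cultures (5.15, 5.22 and 5.68). As for KRT18, the share of all probes with such a separation was not counted. The difference from bFGF was 0.70 (SE 0.21, 95% interval 0.22 to 1.17), with an adjusted p of 0.0571. KRT19 passed the threshold in 6 of 16 alternative settings, among them quantile normalization (0.67, adjusted p = 0.00991) and normexp background correction (0.69, adjusted p = 0.0184). Over all alternatives its adjusted p ranged from 0.00991 to 0.303 and its difference from 0.61 to 0.81.

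**Figure D2:**
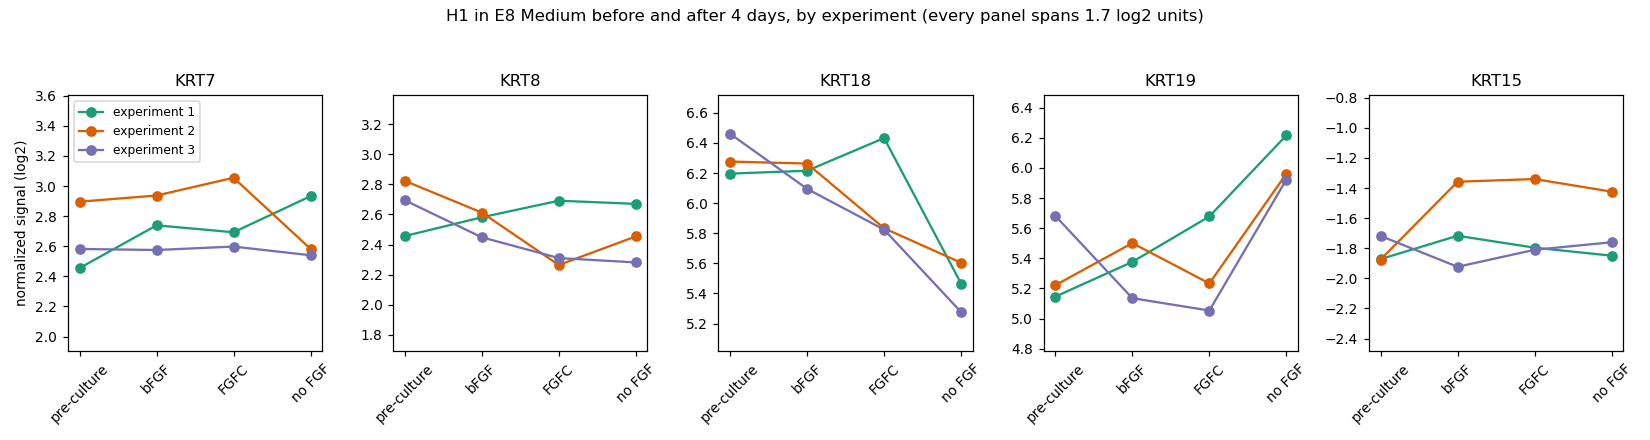
Log2 normalized signal (y axis, 1.7 units in every panel) of the 5 genes that were well above background on every array, in H1 in E8 Medium as pre-culture and after 4 days with bFGF, FGFC or no FGF; each line is 1 experiment and each point 1 culture. The 3 points without FGF are the lowest for KRT18 (5.28 to 5.60) and the highest for KRT19 (5.92 to 6.22).

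KRT8, the type II partner of KRT18, was at 2.55 ± 0.09 (SD, n = 3) with bFGF and at 2.47 ± 0.20 without FGF. The difference was -0.08 (95% interval -0.47 to 0.32, adjusted p = 0.828), and the other KRT8 probe differed by 0.02. Within each experiment KRT18 moved relative to KRT8, by -0.84, -0.50 and -0.65 against bFGF. KRT19 moved relative to KRT18 by 1.59, 1.12 and 1.61. KRT7 differed by -0.07 (95% interval -0.50 to 0.37, adjusted p = 0.872). KRT15, the only basal keratin that could be followed, differed by -0.01 (95% interval -0.46 to 0.44, adjusted p = 0.98). These intervals leave room for differences of up to about 0.50 in either direction.

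The same cultures without FGF were also set against those with FGFC. They gave similar values, but 0 of the 10 genes passed the test beside 10.8% of all probes (4.71% higher and 6.07% lower). KRT18 differed by -0.58 (95% interval -1.01 to -0.16, adjusted p = 0.0842) and KRT19 by 0.71 (95% interval 0.24 to 1.18, adjusted p = 0.0583). At an unadjusted p under 0.05, 9641 probes were counted and 2 of the 10 genes, KRT18 and KRT19. KRT18 passed the threshold in 5 of 16 alternative settings and KRT19 also in 5 of 16. In this comparison KRT18 differed by -0.97, -0.23 and -0.55 in experiments 1, 2 and 3, and KRT19 by 0.54, 0.73 and 0.87.

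The other genes of the epithelial programme did not move as 1 block without FGF. Of 20 other keratins on the arrays 0 were called against bFGF, with a median difference of 0.06 beside 0.01 over all probes. Of 17 desmosome and linker genes, which tie keratin filaments to cell junctions, 2 were higher and 1 lower. PERP, a desmosomal membrane protein and p63 target, rose 2.49-fold (adjusted p = 0.000936), and DSC2, a desmosomal cadherin, rose 1.92-fold (adjusted p = 0.00449). Among 17 genes of epithelial junctions 2 were higher and 2 lower, with the tight junction genes CLDN7 and CLDN3 lower by 0.86 and 0.64 on the log2 scale (adjusted p = 0.0165 and 0.0182).

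Of 24 genes of the epidermal programme, 5 were higher without FGF and 4 lower, with a median difference of -0.06 beside 0.01 over all probes. GRHL3, COL17A1, TFAP2C and KLF5 were picked for the size of their differences, and the genes called lower are not named. GRHL3, a transcription factor of the surface epithelium, rose from -3.45 to 1.57 (32.4-fold, adjusted p = 1.76e-06). COL17A1, a hemidesmosome collagen, was at least 4.44-fold higher (adjusted p = 1.56e-06), as it was not well above background on any bFGF array. TFAP2C, a transcription factor of surface ectoderm and trophoblast, rose 4.49-fold (adjusted p = 0.00193). KLF5, an epithelial transcription factor, was at -5.33 with bFGF, where 2 of 6 arrays were well above background, and at -2.32 without FGF (adjusted p = 0.000436). KRT5 and KRT14, which these factors accompany in skin, stayed at background.

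Markers of some other cell types moved with the withdrawal. Of 10 markers of neural ectoderm 9 were higher (median difference 4.18), as were 6 of 10 of surface ectoderm (2.85) and 7 of 15 of trophoblast and amnion, of which 2 were lower (0.84). Of 12 markers of mesendoderm and endoderm 2 were higher and 1 lower (median difference 0.21). Among 12 of mesenchyme and fibroblasts 1 was higher and 2 were lower (-0.10). Of 10 markers of pluripotent cells 4 were lower and 1, SOX2, was higher. CRIPTO was 9.96-fold lower (adjusted p = 3.08e-06). DLX5, a homeobox gene of surface ectoderm, was at least 387-fold higher (adjusted p = 1.22e-07). Their part in the values of KRT18 and KRT19 was not tested, and in these bulk samples fewer cells of a type and less RNA per cell cannot be told apart.

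Replacement of bFGF by FGFC was not followed by a called change of any of the 10 genes. After 4 days limma called 0 of the 10 genes and 0 (0%) of all probes, with 1262 probes and 0 of the 10 genes at an unadjusted p under 0.05. KRT18 differed by -0.16 (95% interval -0.59 to 0.26) and KRT8 by -0.13 (95% interval -0.52 to 0.27). KRT18 was higher with FGFC in experiment 1 (0.22) and lower in experiments 2 and 3 (-0.43 and -0.27). The spread between experiments was larger than the mean difference.

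In the long-term cultures of the 5 systems the count was also 0 of 10 genes and 0 (0%) of all probes, with 2508 probes and 0 of the 10 genes at an unadjusted p under 0.05. KRT7 was higher with FGFC in 5 of 5 systems, by 0.02 to 0.47. Its mean difference was 0.19 (95% interval -0.04 to 0.43) at an adjusted p of 0.704. KRT19 was higher in 4 of 5 systems, with a mean difference of 0.17 (95% interval -0.05 to 0.39) and the same adjusted p of 0.704. KRT18 was higher in 3 systems and lower in 2, between -0.13 and 0.21. The effect of FGFC on each of the 10 genes was also compared between the long-term and the 4-day cultures. It was taken as FGFC minus bFGF within each system or same-numbered experiment. The smallest adjusted p of this comparison in limma was 0.923.

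H1 in MEF-CM, in 3 cultures, was set against H1 in E8 Medium with FGF, in 11 cultures. FGF was at 5 ng/mL in MEF-CM and at 100 ng/mL in E8 Medium, so that medium and dose cannot be told apart. KRT15 and KRT17 were higher in MEF-CM, and KRT7, KRT8, KRT18 and KRT19 did not pass the test. Of the 10 genes, 2 were called higher and 3 lower, beside 37.1% of all probes (10% higher and 27.1% lower), and the median difference over all probes was -0.15.

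KRT15 had signals of -0.84, -1.12 and -0.72 in MEF-CM as pre-culture, with bFGF and with FGFC. In the 11 cultures in E8 Medium it lay between -1.92 and -1.34, with a median of -1.81. The 3 values in MEF-CM were above this range. The difference was 0.85 (SE 0.17, 95% interval 0.49 to 1.21), or 1.81-fold, at an adjusted p of 0.000701. It passed the threshold in all 15 alternatives, with differences of 0.66 to 0.998 and adjusted p-values of up to 0.0113. The KRT15 level in MEF-CM was also above those of KhES-1 (-2.02 to -1.77) and 253G1 (-2.11 to -1.83), and it was matched by 1 other culture, the 201B7 pre-culture (-0.84).

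KRT17 was at -4.67 ± 0.39 (SD, n = 3) in MEF-CM, where all 6 arrays were well above background. In E8 Medium it was at -5.32 ± 0.35 (SD, n = 11), with 6 of 22 arrays well above background. The difference was 0.65 (95% interval 0.16 to 1.14, adjusted p = 0.0355). It turned to -0.06 under normexp background correction (adjusted p = 0.77), and without the FGFC culture in MEF-CM it was 0.43 (adjusted p = 0.275). KRT14 was likewise well above background on all 6 arrays in MEF-CM and on 1 of 22 in E8 Medium, and its signals in MEF-CM were -5.47, -5.53 and -4.95. Its difference was 0.44 (95% interval -0.04 to 0.92, adjusted p = 0.142). The lowest normalized signal among probes well above background was itself lower on the MEF-CM arrays (-7.38 to -6.81) than on those of H1 in E8 Medium with FGF (-6.75 to -4.74), and the part of this in the counts of arrays was not tested.

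The genes called lower in MEF-CM were KRT5, KRT23 and TP63, with adjusted p-values of 0.000948, 0.000429 and 0.018, while the other KRT23 probe missed the threshold (adjusted p = 0.148). KRT5 and KRT23 were not well above background on any array of either group, so that no fold can be given, and TP63 was so on 1 of 6 and 4 of 22 arrays. These values stand at background beside 7 of 20 other keratins that were also called lower, of which KRT2, KRT6B, KRT12 and KRT75 (named after their values had been seen) were not well above background on any array of either group. With only probes well above background in the test, 2 of the 10 genes were called, both higher. All arrays in MEF-CM were scanned on 1 day, while those of H1 in E8 Medium with FGF span 5 other days. Medium and scan day therefore cannot be told apart, and a random block for the day cannot separate them. With this block KRT15 was called (0.85, adjusted p = 0.00898) and KRT17 was not (0.65, adjusted p = 0.165).

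Other cytoskeletal genes of H1 also differed in MEF-CM. Of 17 desmosome and linker genes 8 were higher and 1 lower, with the plakophilin PKP2 2.57-fold (adjusted p = 3.27e-06) and PERP 2.03-fold higher (adjusted p = 7.89e-05). Of 24 genes of the epidermal programme 11 were higher and 5 lower. VIM, the intermediate filament protein of mesenchymal cells, rose 10.8-fold (adjusted p = 6.21e-09). Of 12 markers of mesenchyme and fibroblasts 6 were higher and 2 lower, ACTA2 by 6.13 and TAGLN by 3.46 on the log2 scale. Their part in the KRT15 and KRT17 values was not tested.

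Between lines in the same kind of culture 0 of the 10 genes were called. For 253G1 against H1, both in E8 Medium, this stood beside 35.9% of all probes (14% higher and 21.8% lower). The 253G1 and H1 cultures shared no scan day, so that line and scan day cannot be told apart. Among the 5 genes that were well above background throughout, the differences ran from -0.23 for KRT15 to 0.29 for KRT19. The smallest adjusted p was 0.0651, for KRT5 (0.62), which was not well above background on any of these arrays, and 1 of the 10 genes and 19925 probes were counted at an unadjusted p under 0.05. For 201B7 against KhES-1, both on feeder cells, 0 of 10 genes stood beside 31.2% of all probes (20.5% higher), with 1 of the 10 genes and 19633 probes at an unadjusted p under 0.05. FGF was at 10 ng/mL for 201B7 and at 5 ng/mL for KhES-1, and they shared no scan day. Line, dose and scan day therefore cannot be told apart here. The median difference over all probes was 0.34. KRT15 differed by 0.45 (95% interval -0.001 to 0.90, adjusted p = 0.109).

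The 201B7 pre-culture stood apart from the 2 long-term 201B7 cultures in several of these genes. Its KRT7 signal was 3.53 against 2.77 and 2.93, the highest of the 26 undifferentiated cultures. Its KRT15 signal was -0.84 against -1.60 and -1.93, and its KRT19 signal, 4.85 against 5.37 and 5.70, was the lowest of the 26. TP63 was well above background on both of its arrays, the only culture with this mark on both. It was scanned on another day than the long-term 201B7 cultures, so that culture and scan day cannot be told apart. Its 2 arrays were also the dimmest, with 75th percentiles of the signal of 182 and 234 against 504 to 914 on the other arrays, and the part of this in its values was not tested. With the long-term cultures alone, the comparison with KhES-1 also gave 0 called genes.

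KRT18 also differed between systems. It lay between 5.40 and 5.87 in the 6 cultures of KhES-1 and 201B7 on feeder cells. In the 17 cultures of H1 and 253G1 without feeder cells and with FGF it lay between 5.82 and 6.64, and those of MEF-CM were 6.36, 6.08 and 6.28. The ranges touched only at the 4-day FGFC cultures of experiments 2 and 3 (5.83 and 5.82), beside the KhES-1 culture with FGFC (5.87).

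The comparisons of KRT18 between systems on feeder cells and in E8 Medium were added after these values had been seen. KRT18 was lower in 201B7 on feeder cells than in 253G1 in E8 Medium, with a log2 difference of -0.84 (SE 0.19, 95% interval -1.23 to -0.45, adjusted p = 0.00249). It was 1 of 2 genes called lower, beside 28% of all probes called (13.7% higher and 14.3% lower). The other was KRT14, which was well above background on 0 and 1 of 6 arrays. The other KRT18 probe gave -1.01 (adjusted p = 0.00158), and KRT18 was called in all 19 alternatives. In KhES-1 on feeder cells KRT18 differed from its level in H1 in E8 Medium by -0.48 (SE 0.15, 95% interval -0.79 to -0.17, adjusted p = 0.00849). In that comparison 5 of the 10 genes were called lower and 1 higher. However, 68.1% of all probes were called (18.4% higher and 49.7% lower). The median difference over all probes was -0.54, about that of KRT18. When the test was limited to probes with the mark for well above background, KRT18 among them, this median was -0.05. Under quantile normalization KRT18 differed by -0.84 (adjusted p = 3.67e-06). With the scan day as a random block the adjusted p was 0.0504. KRT8 differed by -0.33 and 0.01 in the same comparisons (adjusted p = 0.089 and 0.967). KRT7 was 0.42 higher in KhES-1 than in H1 in E8 Medium (adjusted p = 0.0173), and 0.11 higher under quantile normalization (adjusted p = 0.606). Line, medium, dose, feeder cells and scan day differ together here and cannot be told apart.

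**Figure D3:**
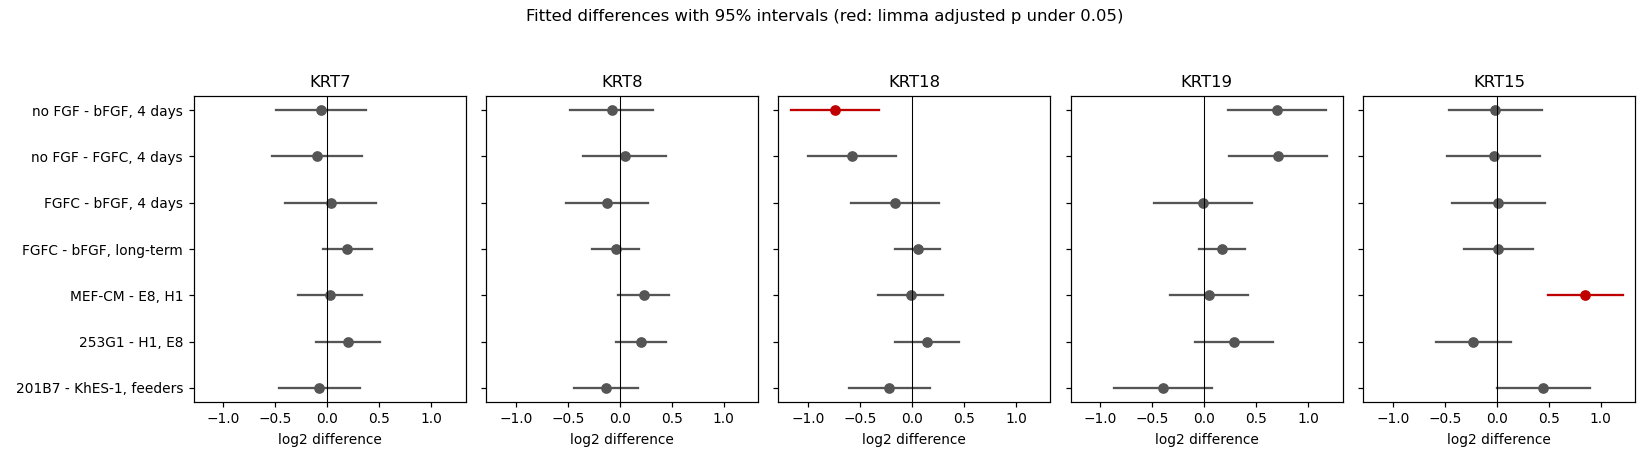
Fitted log2 differences (x axis) with 95% intervals of KRT7, KRT8, KRT18, KRT19 and KRT15, the genes well above background on every array, in 7 comparisons (y axis); red marks a limma adjusted p under 0.05. KRT18 without FGF (-0.74) and KRT15 in MEF-CM (0.85) are the values in red.

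The widest differences were those of the differentiated culture. All 10 genes were higher there than the mean of the 11 cultures of H1 in E8 Medium with FGF, the simple keratins by 0.73 to 3.05 and the basal keratins by 1.35 or more on the log2 scale. With 1 differentiated culture there is no test, and a value was counted where it lay outside the range of the 11 cultures and at least 2-fold from their mean. By this rule 9 of the 10 genes were higher and 0 lower, beside 12.7% of all probes higher and 14.9% lower. The differentiated arrays were scanned on a day of their own, so that scan day and differentiation cannot be told apart.

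KRT5 was at 1.50 in the differentiated culture and between -7.76 and -6.02 in the 11 cultures, at least 156-fold higher. Such a bound was taken against the lowest signal well above background on each array, or the probe's own signal where that was higher. KRT14, the partner of KRT5, was at 0.51 against -6.50 to -5.41, with 1 of 22 reference arrays well above background, and its difference was 6.26, or 6.05 against the same floor. KRT17 was at 0.52 against -6.21 to -4.93, with 6 of 22 reference arrays well above background, a difference of 5.84, or 5.73 against the floor. KRT15 rose less, from a mean of -1.75 to -0.39, which is 2.55-fold. It was thus the basal keratin with the smallest difference and the only 1 on all reference arrays well above background, and its differentiated value was above the highest of the 26 undifferentiated cultures, -0.72.

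KRT23 was at -0.83 against -6.55 to -4.69, higher by at least 4.52 on the log2 scale, and its other probe was at least 209-fold higher. TP63 was at -4.58 against -6.59 to -5.12, with 1 of 2 differentiated arrays and 4 of 22 reference arrays well above background. Its value lay outside the range and 1.47 above the mean, but against the floor it was 1.90-fold higher, under the 2-fold limit, so that with the floor 8 of the 10 genes were counted.

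Among the simple keratins KRT7 had the largest difference, from a mean of 2.73 to 5.78, or 8.29-fold. KRT19 rose from 5.43 to 7.55, or 4.33-fold, and KRT8 from 2.56 to 4.30, or 3.33-fold, with 3.31-fold for its other probe. KRT18 went from 6.25 to 6.98, above the range of the 11 cultures (5.82 to 6.64) but only 1.66-fold. Its other probe was 1.93-fold higher. KRT18 was therefore not counted.

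**Figure D4:**
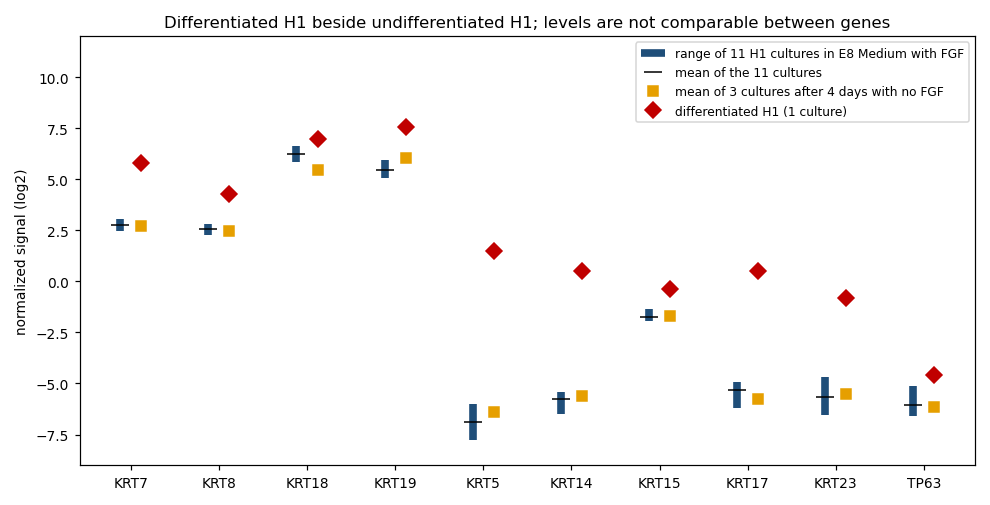
Log2 normalized signal (y axis) of the 10 genes (x axis) in 1 differentiated H1 culture (diamonds), with the range (bars) and mean (lines) of 11 cultures of H1 in E8 Medium with FGF and the mean of 3 cultures after 4 days without FGF (squares). KRT5, KRT14, KRT17 and KRT23 show the widest gaps, and the squares lie within the range of the bars except for KRT18, below, and KRT19, above.

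Other genes of the same compartments are given as counts by the same rule. Of 20 other keratins 9 were higher and 1 lower, with a median difference of 0.60 beside -0.21 over all probes. KRT80, KRT6A and KRT24 were among those higher, by 6.02, 4.79 and 4.64 on the log2 scale, with 3, 2 and 1 of 22 reference arrays well above background (5.23, 4.54 and 3.82 against the floor), and KRT1 was higher by at least 4.59. Of 17 desmosome and linker genes 8 were higher and 0 lower, with DSP, which ties keratin filaments to desmosomes, 3.96-fold higher. Of 24 genes of the epidermal programme 16 were higher and 4 lower, among them as higher ZNF750 (6.01 on the log2 scale, 3 of 22 reference arrays well above background, 5.57 against the floor), TFAP2A (5.94, 1 of 22 arrays, 5.12 against the floor) and BNC1 (at least 5.51). Of 17 genes of epithelial junctions 2 were higher and 5 lower, with EPCAM, an adhesion protein of epithelial and pluripotent cells, 2.96-fold lower. Beside the keratins, VIM rose 11.3-fold.

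The differentiated culture held markers of many cell types. Counted as higher were 14 of 15 markers of trophoblast and amnion, 10 of 10 of surface ectoderm, 9 of 10 of neural ectoderm, 11 of 12 of mesendoderm and endoderm and 11 of 12 of mesenchyme and fibroblasts. Of 10 markers of pluripotent cells 9 were lower, POU5F1 41.0-fold, and SOX2 was not counted. Which of these cells carried the keratin signals was not tested.

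Correlations between the keratins were taken over the 26 undifferentiated cultures. KRT8 and KRT18, which are neighbours and partners, had a Pearson correlation of 0.65, and of 0.65 over the 23 cultures with FGF. KRT18 and KRT19 had 0.03 over the 26 cultures and 0.49 over the 23 with FGF. KRT7 had -0.25 with KRT18 and -0.01 with KRT8, and -0.49 and -0.15 over the 23 cultures. KRT8 and KRT19 had 0.32, and 0.53 over the 23 cultures. These are descriptions over cultures that share lines, media and scan days.

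Of 15386 other genes that were well above background on both arrays of at least 9 cultures, the closest to KRT18 were its pseudogene KRT18P55 (0.98 over 26 cultures), SHC1 (0.91) and KIAA0930 (0.89). Those closest to KRT19 were SH3BGRL3 (0.94), the pseudogene KRT19P2 (0.94) and NEK4 (0.93). Whether the pseudogene probes measure their own transcripts or those of the parent gene was not tested. KRT15 was closest to SVEP1 (0.90), ZNF497 (0.85) and LOC389834 (0.84). KRT7 was closest to SHISA4 (0.85), CDK3 (0.84) and PSD4 (0.84), and KRT8 to YBX3, TIMM50 and ERAL1 (0.77 each). Over the 23 cultures with FGF these correlations lay between 0.77 and 0.97.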

How the data were processed

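The authors deposited, per array, the spot signal intensities of Agilent Feature Extraction 10.7.3.1 on a linear scale: a processed signal, already background-subtracted, and raw median signals of spot and background. The deposited value table holds the same processed signal intensities. The scanner's yes or no marks are scores of 1 or 0 that the authors deposited with them. The authors' methods then set signals below 1 to 1 and scaled each array to its 75th percentile.

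Here the same was done on log2 signals, after control and outlier spots were left out and the spots of a probe averaged. The mark for well above background had to be set on a share of 0.5 or more of a probe's spots. The number of arrays limits the precision. Duplicate arrays were averaged. limma 3.58.1 in R 4.3.3 (lmFit, eBayes, Benjamini-Hochberg over 42405 probes, threshold 0.05) compared the arms over 12 cultures, FGFC and bFGF over 10 long-term cultures with the system as a block, and systems over 23 cultures with FGF. All adjusted p-values are limma's. Fits were tested on simulated data. Other steps used Python 3.11.15, pandas 2.3.3, numpy 2.4.6 and matplotlib 3.10.9.

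The genes, companion lists and comparisons were chosen with earlier results of these data known. All 10 genes are named. From each companion list and tested comparison the rule allows up to 4 genes with the largest difference past the threshold, all of whose arrays in the higher group had the mark, and for each of the 10 genes with the mark on both arrays of at least 9 cultures the 3 genes most correlated with it. List genes of the differentiated culture were named after their values were seen. Some genes that the rule allows are not reported here. Promoters are from RefSeq, for 3 of the 10 genes.

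Groups came from the sample labels. On 5 arrays of experiment 3 the passage labels differ, and the pre-culture of experiment 2 has passage 49 against 59 in its arms. Alternatives were normexp (offset 50), quantile normalization, the percentile over spots, a floor taken from the dimmest marked probe of an array, only marked probes, single arrays, the value table, the mean of a gene's probes, slide or scan day as a random block, the experiment as a block, and leaving out cultures. The experiment numbers of the labels pair the arms with bFGF, with FGFC and without FGF. The arms of an experiment also share the passage in the title and the scan day. The main limma fits of these arms did not use this pairing, which entered with the experiment as a block and in differences given per experiment. Deviations from the group means of same-numbered cultures correlated between 0.189 and 0.317 for the arm without FGF with bFGF or FGFC. With the pre-cultures that arm gave 0.133, 0.175 and 0.027. FGFC and bFGF, which the labels pair in the same way, gave 0.146, 0.077 and 0.177. Their same-numbered differences were given for KRT18 and used to compare the FGFC effect between long-term and 4-day cultures.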

Additional observations from a re-analysis of the deposited data

How the results depend on the processing

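Against bFGF, 1 of the 10 genes (KRT18) was called without FGF. The count was 2, with KRT19 added, under normexp, quantile normalization, only probes well above background, the slide as a random block and the scan day as a random block (added after seeing the data), and 3 with only the 2 arms compared. It was 0 with the second arrays and 0 without replicate 1, 2 or 3. KRT15 turned to 0.032 under normexp, 0.061 under quantile normalization and 0.198 with the second arrays. With 1 experiment left out KRT7 ranged from -0.195 to 0.08 and KRT15 from -0.099 to 0.049. Against FGFC the count of 0 became 2 under normexp, quantile normalization, only probes well above background and the slide block, and 1 with the percentile over spots and with the scan day block. The share of all probes called ranged from 3% to 23.6% against bFGF and from 2.29% to 23.8% against FGFC.

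With the experiment as a replicate block, the counts were 1 against bFGF (KRT18, adjusted p = 0.0352), 0 against FGFC and 0 between FGFC and bFGF, and no call of the 10 genes changed.

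For MEF-CM against E8 Medium the 5 calls became 2 under normexp, with the second arrays and with only probes well above background, and 3 under quantile normalization, with 3 cultures per system, and with the scan day block, and they were 3 to 4 when 1 MEF-CM culture was left out. Under normexp KRT14 was -0.132 and KRT17 -0.059. For 253G1 against H1 the 0 calls became 3 under quantile normalization, and 1 with the floor, with the second arrays and with 3 cultures per system, and KRT5 was -0.363 under normexp and -0.454 with the floor. For 201B7 against KhES-1 the 0 calls became 1 under normexp, quantile normalization and the mean of probes, 2 with 3 cultures per system, and 0 to 1 when 1 culture was left out. For KhES-1 against H1 in E8 Medium the 6 calls became 2 under normexp, with only probes well above background and with the scan day block, and 3 with 3 cultures per system. For 201B7 against 253G1 the 2 calls became 1 with the floor and with only probes well above background, and 4 with the second arrays and with the long-term cultures alone. The causes were not tested. Between FGFC and bFGF the count was 0 in all 16 and 15 alternatives. In the differentiated culture 8 to 10 of the genes were counted as higher and 0 lower over all alternatives.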
